A study of Mus musculus with 5 samples.

Results

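The genes described here code for the subunits of respiratory complexes II to V that lie in the nuclear genome, together with cytochrome c. They were chosen by mouse gene symbol (the Sdh, Uqcr, Cox4 to Cox8 and Atp5 families, Cyc1 and Cycs), and a gene was kept when 10 or more expected counts, which are RSEM's estimates of the reads from a gene, were present in 1 or more libraries. Of 49 genes with such a symbol, 45 passed, among 13346 genes that passed of 27729 in all. All 4 genes of complex II, all 9 of complex III, cytochrome c and all 17 of complex V passed, and 14 of 18 passed for complex IV. The total RNA came from mouse embryonic fibroblasts (MEFs) of 13.5-day ICR embryos, grown without head and internal organs and passaged before use. Day 0 is the culture before the medium was changed, and days 2, 5, 10 and 14 are days in serum-free 5C medium, which the labels call 6C and which holds N2, bFGF, LIF, vitamin C and 2-mercaptoethanol in DMEM/F12. The cells were not sorted, and there was 1 library per day, so no difference between days has a replicate check and no p-value is given.

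The respiratory chain passes electrons through complexes in the inner mitochondrial membrane and uses the energy to pump protons, and complex V, the ATP synthase, lets them flow back to make ATP. Complex II oxidizes succinate and is also an enzyme of the citric acid cycle, complex III passes electrons from ubiquinol to cytochrome c, and complex IV passes them from cytochrome c to oxygen. Complexes III, IV and V each combine subunits from nuclear and mitochondrial DNA, whereas complex II is made from nuclear genes alone. Neurons depend heavily on this chain, and a change in its use is part of the question the study asked of its conversion of fibroblasts toward neurons. The subunits made from mitochondrial DNA were not analysed here.

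The letters of known regulatory motifs were searched on both strands in the 250 bases before the transcription start, because many nuclear genes of the chain are targets of the factors NRF1, GABPA (an ETS factor) and YY1. RefSeq promoters were matched for 35 of the 45 genes. The NRF1 letters GCGCATGC was found before 6 of these 35 genes (Sdhb, Cox6a1, Atp5g2, Atp5k, Atp5l and Cycs; 17.1%), against 2.56% of the 27025 genes in the table. The ETS letters CCGGAAG were found before 9 genes (25.7%), against 7.83% of all genes. The YY1 letters AAGATGGC were found before 1 gene, Atp5j (2.9%), against 1.83%. Over the table's 32851 promoters, of which a gene may have several, the shares were 2.26%, 6.91% and 1.56%. A match is a description of the sequence and does not show that a factor was bound. Of the 6 genes with the NRF1 letters, the 2 are printed here whose match lies in the 150 bases before every annotated transcript of the gene. The 6 genes differed in their change on day 10, from −1.38 (Atp5g2) and −1.55 (Sdhb) through −2.21 (Atp5l), −2.67 (Cox6a1) and −2.77 (Cycs) to −2.82 (Atp5k). Capitals mark the NRF1 letters on either strand, both sequences run 5′ to 3′ along the minus strand of the gene, and the build is GRCm38. Cox6a1 (chr5:115348982-115349131) holds 2 overlapping matches, 1 on each strand, and Cycs (chr6:50566570-50566719) holds 1 match.
Cox6a1: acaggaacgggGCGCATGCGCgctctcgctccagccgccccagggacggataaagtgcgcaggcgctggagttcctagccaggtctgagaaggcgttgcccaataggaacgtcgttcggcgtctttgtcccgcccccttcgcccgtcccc
Cycs: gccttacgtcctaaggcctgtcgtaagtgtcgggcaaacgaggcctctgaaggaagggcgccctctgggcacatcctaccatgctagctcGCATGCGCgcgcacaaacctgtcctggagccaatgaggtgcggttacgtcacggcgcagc

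Library totals ran from 2253748 expected counts (day 2) to 3890334 (day 0), and a gene with 3 counts, the limit that a count of 0 allows, made up 7.71e-05 to 0.000133% of a library. Expected counts were divided by TMM library sizes to give normalized counts, and a change is the log2 ratio of normalized count + 1 to day 0. A change past 2-fold was counted as called, and 95% exact (Clopper-Pearson) intervals of a ratio cover counting error only. On day 2, Gm42418 and Lars2 held 6.14% of the counts, against 0.07 to 0.175% in the other libraries. All 12 fibroblast markers passed the filter, and their summed normalized count was 34762 on day 0 and 64050 on day 14. On day 14, 5 of them (Col3a1, Dcn, Fap, Lum and Pdgfra) were over 2-fold higher, against 24.5% of all genes. Another 4 (Prrx1, S100a4, Thy1 and Twist2) were over 2-fold lower, against 19.9%. Col1a1, Col1a2 and Col3a1 held most of the sum. Markers of other cells moved as well. The 10 Schwann cell markers summed to 137, 221, 1252, 7986 and 11261 from day 0 to day 14. Gjc3 was at 0 on day 0, and on day 10 all 10 were over 2-fold higher, against 28.7% of all genes. The 10 macrophage markers summed to 257 on day 0, 3694 on day 5 and 1656 on day 14, with Cd5l and Ptprc at 0 on day 0. Lyz2 held 2738 of the day 5 sum and 974 of the day 14 sum. Itgam went the other way after day 2, with 61.9 normalized counts on day 0, 177 on day 2 and 7.2 on day 14. Of 10 neuron markers 6 passed, and the list summed to 669 on day 0 and 413 on day 14. On day 14, Tubb3 (22.1 to 160.8 normalized counts), Syp, Snap25 and Nefl were over 2-fold higher, against 24.5% of all genes. Stmn2 (448 to 163) and Map2 (196 to 45.6) were over 2-fold lower, against 19.9%, and Dcx, Elavl3, Rbfox3 and Syt1 were at 0. Syp, Snap25 and Nefl reached the minimum of the filter only after day 0, so the filter favoured a rise for them. Syp and Snap25 started from 0, and Snap25 rested on 7 expected counts on day 14. For Nefl, the log2 change of 1.04 had an interval of −1.44 to 4.57, which includes 0. The part of these cell types in the results was not tested. In cultures of mixed cells, fewer cells of a type and less RNA per cell cannot be told apart.

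On day 2 the subunit genes as a whole stood near their day 0 level, and from day 5 most of them were lower. From day 0 to day 14 their summed normalized count was 59573, 63093, 28493, 16394 and 22011 in turn. The sum was thus lowest on day 10 and partly higher again on day 14. As a log2 ratio to day 0, the sum stood at 0.08 on day 2 and −1.06 on day 5. It reached −1.86 on day 10 (95% interval −1.88 to −1.84), and −1.44 was left on day 14. As a share of all counts, these genes held 1.55% on day 0 and 0.591% on day 10.

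On day 2, 4 of 45 genes were over 2-fold lower and 4 were over 2-fold higher, against 13.1% lower and 15.2% higher among all genes that passed. The median change was 0.01. On day 5, 26 genes had fallen over 2-fold and none had risen as far, against 13.6% and 20.2% of all genes, and the median change was −1.08. On day 10, 39 genes had fallen and none had risen over 2-fold, against 22.3% and 28.7% of all genes, with a median of −2.04 and a range of −3.46 to 0.35. On day 14, 36 had fallen and none had risen over 2-fold, against 19.9% and 24.5%, with a median of −1.45. The median change of all genes was −0.03, 0.04, 0.14 and 0.07 on these days. From day 10 to day 14, 42 of 45 genes were higher, with a median of 0.47, against 51.6% of all genes and their median of 0.02. Against genes of equal length the median step was 0.06, with 26 genes above and 19 below. Sdhb alone passed 2-fold upward in this step and Cox7a1 alone downward, against 4.73% and 8.33% of all genes. With library totals in place of TMM library sizes, 12 genes and not 26 were past 2-fold on day 5. On the TPM scale, which divides by gene length, 4 genes on day 5, 21 on day 10 and 14 on day 14 were over 2-fold lower, but the median of all genes on this scale was itself 1.09 above day 0 on day 10.

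**Figure D1:**
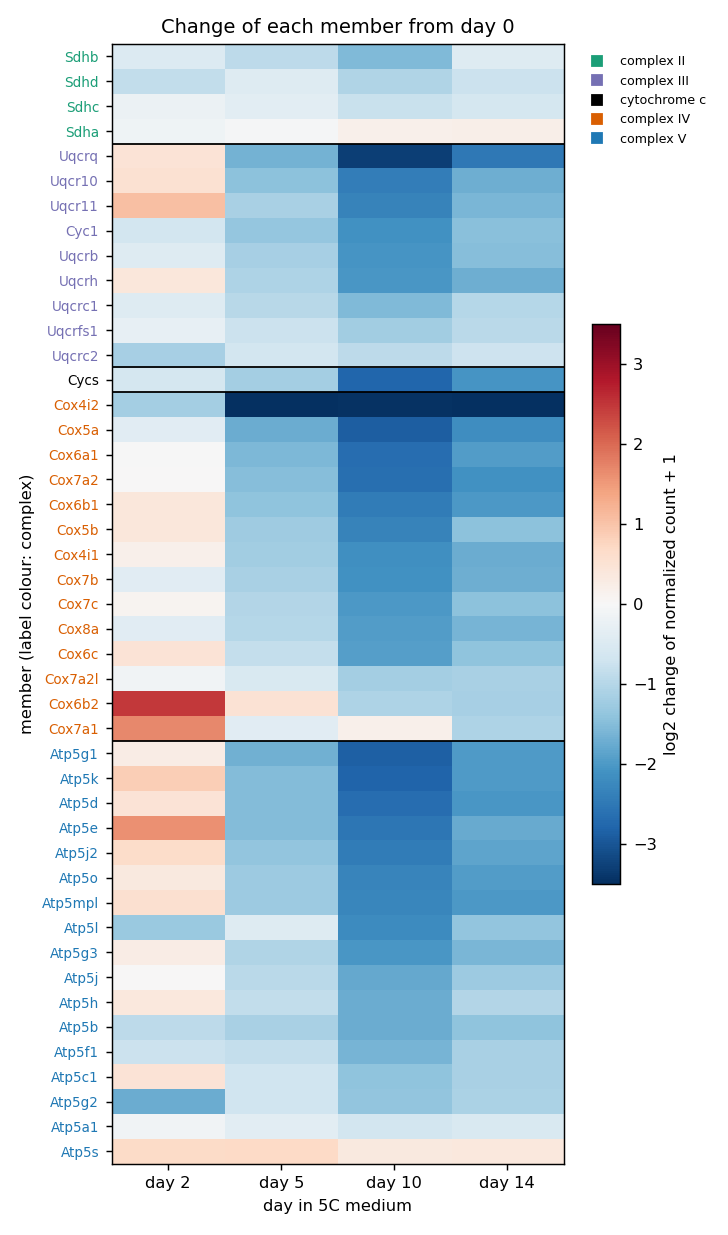
Log2 change of normalized count + 1 from day 0 for each of the 45 genes (rows, grouped by complex and ordered by day 10) on days 2, 5, 10 and 14 (columns), with 1 library per day. Blue is lower and red is higher than day 0; values past −3.5 (Cox4i2 on days 5 and 14, −4.23) take the darkest blue. Day 2 is mixed, and days 5 to 14 are blue for nearly all genes, with Sdha near 0 and Atp5s above it.

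From day 5 to day 14 the medians of complex II were closer to 0 than those of the other 3 complexes, with −0.91 on day 10. On day 2 all 4 of its genes were lower than day 0, and its summed level was at −0.41, against 0.13, 0.12 and 0.09 for complexes III, IV and V. Sdha, the flavoprotein that oxidizes succinate (ENSMUSG00000021577, chr13:74322254-74350280), had normalized counts of 549, 494, 538, 624 and 639 from day 0 to day 14. Its level was nearly flat, with a log2 change of 0.18 on day 10 (95% interval 0.03 to 0.34). Sdhb, the iron-sulfur subunit (ENSMUSG00000009863, chr4:140961203-140979193), had 979, 700, 520, 333 and 713 normalized counts. It fell to −1.55 on day 10 (−1.72 to −1.40) and was at −0.46 on day 14, and its rise of 1.10 from day 10 to day 14 (0.93 to 1.27) was the only rise past 2-fold between those days among the 45 genes. Sdhc and Sdhd form the membrane anchor that binds ubiquinone. Sdhc had 524, 457, 402, 304 and 340 normalized counts and did not pass 2-fold on any day. Sdhd had 564, 313, 409, 273 and 337 normalized counts, with −0.85 on day 2 and −1.05 on day 10 (−1.24 to −0.86). On the TPM scale the summed level of complex II was 770 on day 0 and 894 on day 10, and Sdha, Sdhc and Sdhd were each above day 0 there, so the direction for this complex depends on the scale. For Sdha the length that RSEM assigned also differed, at 1545 bases on day 0 and 2525 on day 10.

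All 9 genes of complex III were lower than day 0 on days 5, 10 and 14. On day 10, 8 of them fell over 2-fold, against 22.3% of all genes, and the median of the complex was −2.06. The core proteins Uqcrc1 and Uqcrc2 carry no redox group. Uqcrc1 had 1504, 1091, 763, 518 and 754 normalized counts from day 0 to day 14. Uqcrc2 had 630, 281, 400, 333 and 381, so its lowest level was on day 2, at −1.16 (−1.43 to −0.91), and on day 10 it was at −0.92, within 2-fold. The catalytic subunits differed from each other on day 10. Cyc1, which codes for cytochrome c1, had 1061, 673, 413, 242 and 387 normalized counts and a day 10 change of −2.13 (−2.31 to −1.95). Uqcrfs1, the Rieske iron-sulfur protein, had 407, 335, 240, 174 and 210 normalized counts and a day 10 change of −1.22 (−1.46 to −0.997).

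The 5 small subunits of complex III, which surround the catalytic core, showed a different course on day 2. Uqcrq had 1441, 1989, 458, 147 and 255 normalized counts from day 0 to day 14. Its day 10 change of −3.29 (−3.51 to −3.08) was the lowest of the 42 genes with 100 or more counts in 1 or more libraries. Uqcr11 had 759, 1569, 344, 150 and 248 normalized counts, and with 1.05 on day 2 (0.90 to 1.19) it rose past 2-fold before it fell. Uqcr10 had 758, 1105, 281, 141 and 232 normalized counts. Uqcrh, the hinge protein, had 1479, 1964, 697, 361 and 451. These 4 genes were all above day 0 on day 2, by 0.41 to 1.05 on the log2 scale. Uqcrb had 651, 479, 288, 156 and 232 normalized counts and was the only small subunit below day 0 on day 2, at −0.44. The median of the 5 small subunits on day 2 was 0.46, that of the core proteins −0.81 and that of the catalytic subunits −0.47. On day 10 all 5 small subunits had fallen over 2-fold, by a median of 2.33 on the log2 scale, against 22.3% of all genes. Against genes of equal length and count their median was −0.14, with 4 below and 1 above.

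Cycs codes for cytochrome c, the soluble carrier between complexes III and IV that also takes part in apoptosis (ENSMUSG00000063694, chr6:50562563-50566538). From day 0 to day 14 its normalized counts were 379, 249, 166, 54.8 and 90.4. It was lower on each later day, and its change was −2.77 on day 10 (−3.15 to −2.42) and −2.06 on day 14. The length that RSEM assigned to Cycs was 1101 bases on day 0 and 2286 on day 10. Its TPM values, which divide by that length, were 123 and 19.0.

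**Figure D2:**
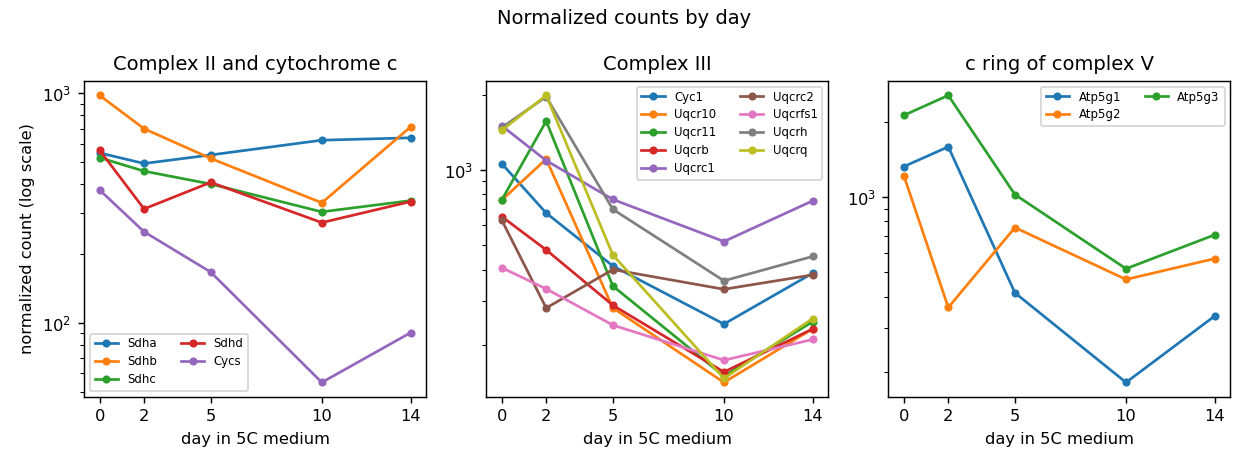
Normalized counts (vertical, log scale) by day in 5C medium (horizontal) for complex II with cytochrome c, for complex III and for the c ring genes of complex V, 1 point per library. Sdha stays between 494 and 639, Sdhb is at 333 on day 10 and 713 on day 14, and Atp5g2 alone of the c ring genes is lower on day 2.

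In complex IV, 13 of the 14 genes that passed fell over 2-fold on day 10, against 22.3% of all genes, and the median of the complex was −2.12. On day 14 all 14 were over 2-fold lower, against 19.9% of all genes. Among these 14, Cox4i2 was at 0 counts on day 14. Cox7a1 was at −1.09 (−4.86 to 1.14), on 5 counts on day 0 and 2 on day 14. The lowest day 10 changes among genes with 100 or more counts were those of Cox5a, Cox6a1 and Cox7a2. Cox5a, a subunit on the matrix side of the enzyme, had 1245, 954, 372, 169 and 274 normalized counts and a change of −2.87 (−3.08 to −2.68) on day 10. Cox6a1 had 2649, 2640, 894, 414 and 678 normalized counts, a change of −2.67 (−2.81 to −2.55). Cox7a2 had 1188, 1194, 424, 189 and 274, a change of −2.65 (−2.85 to −2.46). All 3 genes were below their day 0 level from day 5 on. The 3 highest were Cox6b2, Cox7a2l and Cox6c. Cox6c had 1199, 1658, 677, 312 and 450 normalized counts and a day 10 change of −1.94. The others with 100 or more counts, Cox5b and Cox7c among them, lay between −2.43 and −1.95.

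Several subunits of complex IV exist as isoforms from separate genes, and 1 isoform held nearly all of the counts in most groups. Cox4i1, the common form of subunit 4, had 3556, 3986, 1540, 807 and 1057 normalized counts. Cox4i2, the lung-enriched form that is induced in low oxygen, had 18, 4, 0, 1 and 0 expected counts. Against a limit of 3 counts, and with the day 0 count taken as exact, Cox4i2 was at least 6.79-fold lower on day 5. The same ratio was at least 6.64-fold on day 14. The intervals of its log2 change also cover the counting error of day 0. Their upper ends were −2.31 on day 5 and −2.28 on day 14, which are smaller falls than those ratios. Cox4i2 reached the minimum count of the filter only on day 0, so the filter favoured a fall for this gene. Cox6b1 had 2266, 3009, 850, 418 and 562 normalized counts. Cox6b2, known as the testis form of the same subunit, had 152, 852, 217, 72.1 and 67.0, and its change of 2.48 on day 2 (2.22 to 2.76) was the largest rise of the 45 genes. By TPM, Cox6b2 made up 6.08% of the pair on day 0, 22.9% on day 2 and 10.4% on day 14. Its change on day 10 was −1.07, but 0.20 on the TPM scale. Cox7a2l, which takes part in joining complexes III and IV into supercomplexes, had 1187, 1093, 813, 524 and 541 normalized counts and changes of −1.18 on day 10 and −1.13 on day 14. Cox7b had 1415, 1075, 646, 327 and 435 normalized counts, and Cox8a had 1833, 1397, 915, 473 and 595.

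The other isoforms, those of striated muscle among them, were near the detection limit or had no counts. Cox7a1 had 5, 10, 4, 8 and 2 expected counts, and reached the minimum only on day 2, and its day 2 change of 1.68 had an interval of 0.19 to 3.77. Cox8b, just below the minimum, had 0, 0, 3, 1 and 7 expected counts. Cox6a2 had 1, 0, 0, 1 and 0, and Cox7b2 and Cox8c had none in any library. Of the 10 skeletal muscle markers, 4 passed and all 4 fell over 2-fold on day 10, against 22.3% of all genes. Among them, Myh3 and Mylpf reached the minimum only on day 0, so the filter favoured a fall for them. The summed normalized count of the list was 1223 on day 0 and 49.6 on day 14. The 8 brown adipocyte markers, from a cell type that also expresses Cox7a1 and Cox8b, summed to 70.3 on day 0 and 2065 on day 14. Fabp4, Adipoq and Plin1, which adipocytes of all kinds express, held 1676, 236 and 134 of this sum, while Ucp1 was at 0, Cidea at 1 expected count, and Dio2 and Ppargc1a at 11.6 and 7.15 normalized counts. The part of either cell type in the isoform counts was not tested.

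In complex V, 15 of 17 genes fell over 2-fold on day 10, against 22.3% of all genes, and the median of the complex was −2.04. The exceptions were Atp5a1 and Atp5s. Atp5a1, the alpha subunit of the catalytic head, had 2733, 2502, 2101, 1745 and 1873 normalized counts and a day 10 change of −0.65 (−0.73 to −0.57). Atp5s, which is named as coupling factor B and is not a subunit of the core enzyme, had 18, 16, 34, 32.1 and 26 expected counts, too few to set its changes apart from 0 on any day. Atp5b, the catalytic beta subunit, had 7503, 3994, 3425, 2257 and 2815 normalized counts and was the most counted of the genes on day 0. Its partner Atp5a1 was lower by a smaller factor on day 10, at −0.65 against −1.73, but is the longer gene (2388 against 1379 bases). Against genes of equal length, Atp5a1 was at −0.85 and Atp5b at −1.09. Against length and count the values were −0.46 and −0.655. The length that RSEM assigned to Atp5b was 1020 bases on day 0 and 1857.5 on day 10. On the TPM scale Atp5a1 was above day 0 on day 10, at 576 against 427. The central stalk subunits were at −1.40 (Atp5c1, gamma), −2.67 (Atp5d, delta) and −2.52 (Atp5e, epsilon) on day 10. Atp5c1 had 1258, 1760, 776, 475 and 574 normalized counts, the smallest fall of these 3 subunits. Atp5d had 2053, 2871, 717, 321 and 501 normalized counts. Atp5e had 1338, 4061, 471, 232 and 392, and its rise of 1.60 on day 2 (1.504 to 1.70) was followed by a fall past 2-fold on day 5.

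The 3 genes Atp5g1, Atp5g2 and Atp5g3 code for the same mature c subunit, the ring that turns as protons pass, and they did not move alike. Atp5g1 had 1325, 1590, 414, 181 and 335 normalized counts, and its day 10 change of −2.86 (−3.07 to −2.67) was the lowest of complex V. Atp5g2 had 1219, 362, 755, 468 and 568, with −1.75 on day 2 (−1.98 to −1.54), the lowest value of the 45 genes on that day, and −1.38 on day 10. Atp5g3 had 2125, 2553, 1024, 517 and 707 normalized counts and a day 10 change of −2.04 (−2.16 to −1.92). Of the summed TPM of the 3 genes, Atp5g2 made up 26.2% on day 0, 8.6% on day 2 and 42.7% on day 10. Atp5g1 made up 31.1%, 39.2% and 15.96% on the same days. Atp5g3 stayed the largest or nearly the largest share, at 42.7%, 52.2% and 41.4%.

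The 4 subunits of the peripheral stalk, which holds the head still, all fell over 2-fold on day 10, against 22.3% of all genes. Against genes of equal length and count their median was 0.225, with 2 below and 2 above. Atp5f1 was at −1.62, Atp5h at −1.74 and Atp5j at −1.78, and Atp5o was lower, at −2.32 (−2.45 to −2.19). The 4 small membrane subunits Atp5j2, Atp5k, Atp5l and Atp5mpl had a median of −2.37, against −1.76 for the stalk, with overlapping ranges. Atp5k, which takes part in forming dimers of the enzyme, had 1147, 2091, 396, 162 and 291 normalized counts and a day 10 change of −2.82 (−3.04 to −2.62). Atp5l had 984, 401, 718, 212 and 375.3 normalized counts, with −1.29 on day 2. Atp5l and Atp5g2 were the 2 genes of complex V that fell past 2-fold on day 2, while 12 of the 17 were above day 0. Expected counts were off a whole number by more than 0.05 in 1 or more libraries for 33 of the 45 genes, Atp5l and Atp5g2 among them, which is where RSEM divided reads between genes or transcripts, so copies and pseudogenes of these short genes may hold some of their reads.

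The median gene of the chain was 645 bases long, against 2525 for all genes that passed, and short genes as a whole were lower on day 10 in these libraries. Among genes under 600 bases, 18 of the 19 subunit genes had fallen over 2-fold on day 10, against 69.4% of 252 others. From 600 to 1000 bases these were 11 of 12 against 62.2% of 949, and from 1000 to 2000 bases 10 of 12 against 34.7% of 3641. Above 2000 bases, 0 of 2 (Sdha and Atp5a1) had fallen, against 10.7% of 8459. The share of genes that fell thus dropped with length in both sets. When all genes were put in 20 length classes of equal size, the median day 10 change of genes outside the chain was −1.70 in the shortest class and 1.13 in the longest. In the shortest class, up to 803 bases and with 29 of the 45 genes, this median was 0.26 for day 2, −0.98 for day 5 and −1.25 for day 14.

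**Figure D3:**
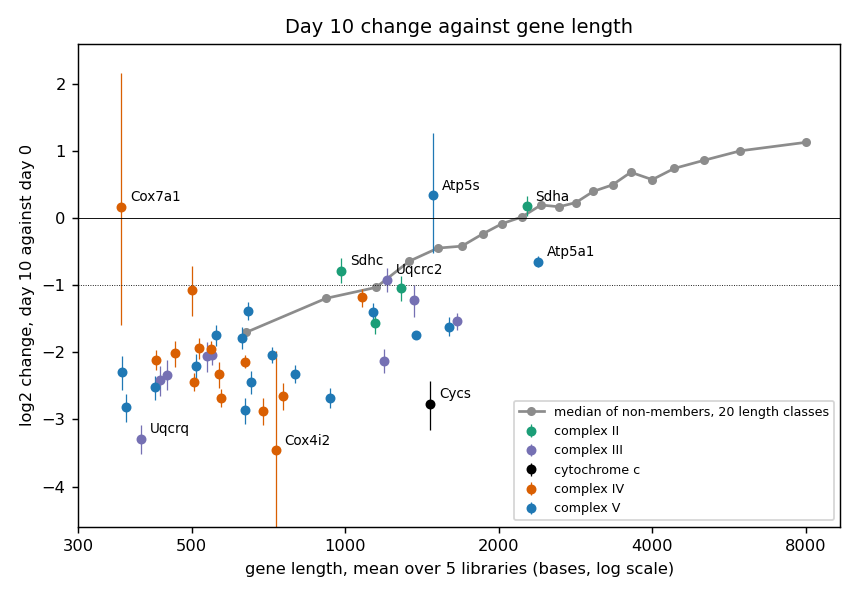
Log2 change on day 10 (vertical) against gene length in bases (horizontal, log scale) for the 45 genes, coloured by complex, with 95% intervals of counting error, and the median of the other genes in each of 20 length classes (grey). The dotted line marks 2-fold lower, and the interval of Cox4i2 (1 count on day 10) runs below the axis. The grey line climbs from −1.70 in the shortest class to 1.13 in the longest, most subunit genes lie below it, and Cycs lies farthest below it among genes with 100 or more counts.

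With the median of the length class taken off, the median change of the 45 genes was −0.10 for day 2 and −0.27 for day 5, then −0.58 for day 10 and −0.48 for day 14, and 38 of 45 were below their class on day 10. By complex, the day 10 medians were −0.12 for complex II, −0.63 for complex III, −0.42 for complex IV and −0.62 for complex V. Most of this remainder was shared by other genes that are both short and highly counted. In the shortest class, the genes were split into 4 equal groups by mean count, and those outside the chain had a median of −2.28 on day 10 in the highest group, against −0.21 in the lowest. Of the 167 genes in the highest group, 25 were of the chain. Without the complex I and mitochondrial ribosomal genes there, the median of the others was also −2.28. With each length class split into 4 by mean count, the median of the 45 genes against their class was −0.14, −0.06, −0.05 and −0.07 on days 2, 5, 10 and 14, with 25 below and 20 above on day 10. With quantile normalization the day 10 median against length alone was −0.01. The median of the set on day 10 thus lay close to that of other genes of its length and count.

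Single genes lay farther from the median of genes of equal length and count, but the spread of genes within these classes is not given here. On day 10 Cycs was at −1.98 against its class and at −2.32 against genes of equal length alone, and 2.56% of the genes in its length class had a lower change. Uqcrq was at −1.01, Atp5d at −0.89 and Uqcrc1 at −0.87 against genes of equal length and count. Also below these genes were Atp5f1 at −0.69, Atp5b at −0.655, Cox5a at −0.60, Atp5g1 at −0.59, Cyc1 at −0.57 and Atp5k at −0.54. For the genes from Uqcrq to Atp5k, 6.77% (Atp5d) to 18.5% (Atp5b) of the genes in the length class had a lower change. Cox4i2 was at −3.24, on 1 expected count on day 10. On the other side were Sdhc at 1.00, Atp5g2 at 0.90, Cox6b2 at 0.84, Uqcrc2 at 0.64, Atp5h at 0.53, Atp5j at 0.50 and Sdha at 0.47. For these genes, 47.3% (Atp5j) to 67.3% (Cox6b2) of the length class had a lower change. By length alone they thus lay nearer the middle of their class. In complex II, Sdhb (0.00) and Sdhd (0.03) were level with this class on day 10, and on day 2 all 4 genes were below it, with a median of −0.45. On day 2, Cox6b2 was 2.20 above and Atp5g2 was at −2.11. With 1 library per day, the spread between cultures around these values is unknown.

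**Figure D4:**
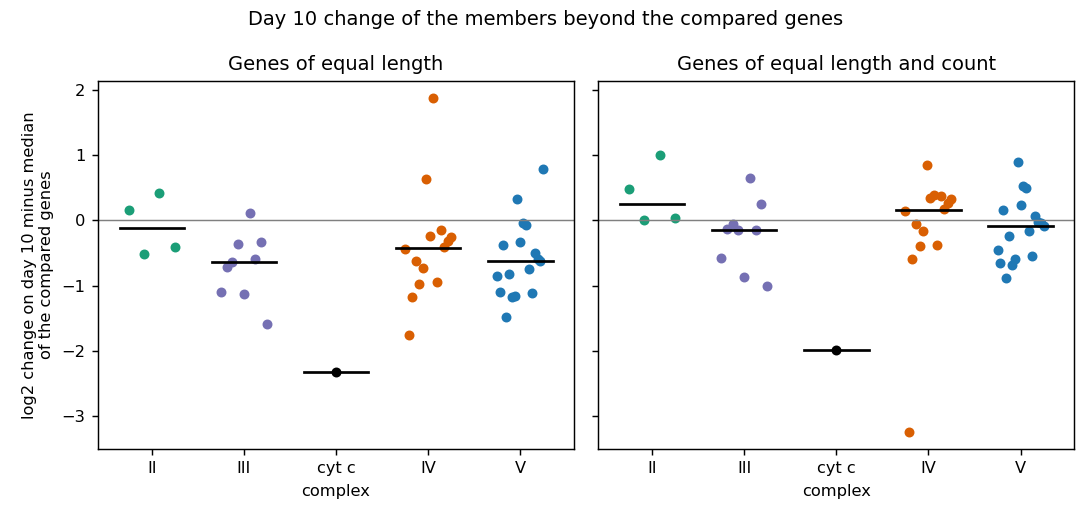
Day 10 log2 change of each of the 45 genes minus the median of genes outside the chain in the same length class (left) and in the same class of length and mean count (right), by complex, with the median of each complex as a black line. Against length alone the medians run from −0.12 (complex II) to −0.63 (complex III), and against length and count the medians of the 4 complexes lie between −0.15 and 0.25 while Cycs stays at −1.98; the lowest point on the right is Cox4i2, which rests on 1 count on day 10.

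Other genes of the same organelle were lower as well, where 22.3% of all genes that passed fell over 2-fold on day 10. Of the 37 nuclear genes of complex I, which takes electrons from NADH, 36 fell over 2-fold on day 10, with a median of −2.08, of −0.54 against genes of equal length and of −0.20 against genes of equal length and count. Of 77 mitochondrial ribosomal protein genes, 74 fell, with a median of −1.88, and the values against these classes were −0.78 and −0.65. The same values were −0.58 and −0.05 for the 45 genes, and the differences between lists have no test. Of the 33 assembly factors of complexes II to V that passed, 19 fell over 2-fold on day 10, with a median of −1.14, and −0.65 and −0.60 against these classes. Sdhaf1, which helps to put the iron-sulfur clusters into Sdhb, was at −2.77, and Uqcc2, an assembly factor of complex III, was at −2.44. Cox15, needed to make the heme of complex IV, was higher on day 10 at 0.88 (0.41 to 1.40) and did not pass 2-fold.

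Genes of the citric acid cycle outside complex II, listed here with Dlat, Pdha1, Pdhb and Pdhx of the pyruvate dehydrogenase complex, were lower by less. Of these 18 genes, 5 fell over 2-fold on day 10, Pdhb (−1.04) among them, and none rose as far. The median was −0.57, and the share that fell is near the 22.3% of all genes. Against genes of equal length the median was −0.56, and against length and count −0.10. Mdh2, malate dehydrogenase of the mitochondria, was lowest at −2.45, whereas Cs, citrate synthase, was at −0.36 and Idh2, an isocitrate dehydrogenase that makes NADPH, was at 0.80. Among 13 transcriptional regulators of the chain that passed, 1 fell and 4 rose over 2-fold on day 10, near the 28.7% of all genes that rose, and 6 were below and 7 above genes of equal length. Esrra, an orphan nuclear receptor that acts with the coactivator PGC-1alpha, fell to −1.07 (−1.43 to −0.74). Gabpa rose to 1.40 (1.08 to 1.75), Creb1 to 1.12 and Ppard to 1.018. Against genes of equal length, Gabpa was at 0.655, Creb1 at 0.25 and Ppard at 0.62, and Esrra was at −0.99. Ppargc1a, which codes for PGC-1alpha, rose to 1.49 (0.33 to 3.22) on 6 expected counts on day 0 and 26 on day 10. It reached the minimum of 10 counts only on day 10, so the filter favoured this rise, which is 1 of the 4. Nrf1 was at −0.97 (−1.34 to −0.61), and Tfam, which packages mitochondrial DNA, was at −0.25 (−0.67 to 0.17). The 5 cytosolic ribosomal protein genes of the list that were measured all fell over 2-fold on day 10, with a median of −2.63, of −1.53 against genes of equal length and of −0.95 against length and count.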

How the data were processed

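The authors sequenced total RNA (TruSeq) from 1 library per day and deposited, per gene, expected counts from RSEM, together with TPM and FPKM values and a gene length. The submitters' processing notes name mm10, Bowtie and RSEM, with no versions. The deposited expected counts were used for the main results, TPM as an alternative and for shares between isoforms, and FPKM for no result. The deposited length is an average over transcripts weighted by abundance and differs between libraries, so its mean over the 5 libraries was used. Symbols and coordinates came from GENCODE M21 (GRCm38), for 27247 of 27729 genes, and promoters from RefSeq (GRCm38.p6). In this annotation the genes now called Atp5md and Atp5if1 carry other symbols and were not included. Samples were grouped by the day in their labels.

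Expected counts were rounded for TMM factors (edgeR 4.0.16, R 4.3.3), and changes are log2 ratios of normalized count + 1 to day 0. The filter kept genes that reached 10 expected counts in at least 1 library, and a change past 2-fold was called. Intervals of ratios are exact Clopper-Pearson 95% intervals of rounded counts without a pseudocount. Totals of 2253748 to 3890334 counts gave intervals that reached 0.175 (log2, median over members) to either side on day 10. Changes were compared with non-members in 20 classes of length. With 1 library per day no test was possible. The members and gene lists were chosen with earlier results of these data known. Values in every library were given for complexes II and III, cytochrome c, the isoform groups, and the 3 lowest and 3 highest members of complexes IV and V on day 10 among those with 100 or more counts; some further genes were named after their values were seen. Alternatives were other scalings (DESeq2 1.42.0 size factors, library totals, quantile normalization, TPM), filters, pseudocounts, thresholds and comparison classes. The code was tested on simulated data. Python 3.11.15 with pandas 2.3.3 and matplotlib 3.10.9 was used.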

Additional observations from a re-analysis of the deposited data

How the results depend on the processing

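No paired analysis was possible because each day has 1 library, and for the same reason no replicate could be left out. The fall of the median on days 5, 10 and 14 kept its direction under every alternative run, but its size depended on the scaling. The day 5 median of −1.08 was −0.71 with library totals, −0.62 with quantile normalization and −0.45 with TPM. The day 10 median of −2.04 was −1.56, −1.63 and −0.95 under the same 3 settings, and the day 14 median of −1.45 was −1.10, −1.16 and −0.65. The median of all genes itself moved to 0.41, 0.60 and 0.42 with library totals and to 0.61, 1.09 and 0.79 with TPM on days 5, 10 and 14, and to −0.12 and −0.20 on day 2. The day 2 median was −0.23 with TPM. The rise from day 10 to day 14 was 0.18 with TPM, against 0.47. Of members over 2-fold lower, the 4 on day 2 became 9 past 1.5-fold and 0 past 4-fold. The 26 on day 5 became 12 with library totals, 11 with quantile normalization, 4 with TPM and 1 past 4-fold. The 39 on day 10 became 21 with TPM and 25 past 4-fold, and the 36 on day 14 became 14 and 7. The comparison with genes of equal length moved most. On day 5 its −0.27 turned to 0.078 with quantile normalization, and was −1.05 without a filter and −0.058 with classes of length and count. On day 10 its −0.58 was −0.008, −1.96 and −0.052 under these settings, −0.40 with 10 counts in every library and −0.27 with 100 counts in 1 or more. On day 14 its −0.48 was −0.053, −1.45 and −0.070, and −0.26 with 100 counts. Without a filter, the length classes hold many genes near 0 counts; the cause of the other shifts was not tested. With TPM, the day 10 changes of Sdhd and Cox6b2 turned to 0.11 and 0.20. Depth limits Cox4i2, Cox7a1 and Atp5s, whose intervals span more than 1 log2 unit.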
